A study of Saccharomyces cerevisiae with 12 samples.

Results

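The genes described here encode the proteins of the large (60S) subunit of the cytosolic ribosome of Saccharomyces cerevisiae. They were taken by name: all rows named RPL followed by a number, with or without the letter A or B, and the rows RPP0, RPP1A, RPP1B, RPP2A and RPP2B. The rule found 81 of the 6352 genes in each deposited table, 76 RPL genes and 5 RPP genes, which together encode 46 proteins. Of the 81, 70 form 35 A/B pairs and 11 have no second copy. RPP1, a subunit of RNase P whose name resembles the stalk genes, was outside the rule. The study compared 3 haploid strains. Those tested were Δscd6, which lacks SCD6, and Δsbp1, which lacks SBP1, and the reference strain was wild type BY4741, a laboratory strain with auxotrophic markers. Each was grown in rich medium with glucose to an optical density of 0.4 to 0.5 and either given 0.5% sodium azide for 30 minutes or left untreated, which makes 6 groups of 2 libraries. Both missing proteins, Scd6 and Sbp1, bind RNA, carry arginine- and glycine-rich repeats and repress translation, and azide, which blocks respiration, brings on cytoplasmic RNA granules. The stated aim was to find how the transcriptome responds to azide with and without these proteins.

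The large subunit holds the peptidyl transferase centre, where amino acids are joined, and the tunnel through which the new chain leaves. In yeast most of its proteins are encoded by a pair of genes left from an ancient genome duplication, and many of the genes carry an intron, which is uncommon in this organism. Their transcription is high in growing cells, is driven by Rap1 together with Fhl1, Ifh1 and Sfp1, and is classically lowered under stress.

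The values come from 7 tables of the authors' own comparisons: azide over untreated within a strain, and a deletion strain over wild type with or without azide. No value per library was analysed, so each group is given as one level, a normalised count rebuilt from the authors' mean over libraries and their fold changes, with no spread of its own. A called gene is one with the authors' adjusted p under 0.05 over all 6352 genes. Each error is a standard error implied by the authors' fold change and p-value. In the azide response of the wild type its median was 0.29 log2 units over the 81 genes and 0.24 over all genes. The labels do not say whether the 2 libraries of a group are separate cultures. A p-value here rests on differences among libraries, which may be technical. A gene's implied error was nearly the same in all 7 comparisons, as for RPL11A at 0.292 to 0.294. The errors thus appear not to be separate estimates from the libraries of each group. The libraries were made from whole cultures and scaled to each other, so fewer cells expressing a gene and less of its RNA per cell cannot be told apart. The strain labels held: in the authors' deposited table SCD6 stood in Δscd6 at 4.5% of wild type in azide and at 1.3% untreated, and SBP1 stood in Δsbp1 at 1.3% and 0.3%. RPL8A lies next to SBP1 in the genome, and in the authors' deposited table its log2 fold change in Δsbp1 over wild type was -0.45 in azide (adjusted p = 0.31) and -0.16 untreated (adjusted p = 0.91).

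The copies of a pair can be nearly the same sequence, which bears on how reads are divided between them. In the RefSeq annotation of assembly R64 all 81 genes had a coding sequence, and the coding identity of the 35 pairs ran from 68.9% to 99.4% with a median of 93.2%. In 12 pairs the encoded proteins were identical, and 11 pairs had a coding identity of at least 95%. The sources used here do not say how reads with several matches, or on either strand, were counted, so values of such pairs are uncertain as single genes. The first 120 coding bases are shown for the pair whose copies differed most in the azide response of the wild type, RPL15, with the 6 differing positions in capitals. Over the whole coding sequence, 11.8% of the 50-base windows of RPL15A were also found in RPL15B.
RPL15A: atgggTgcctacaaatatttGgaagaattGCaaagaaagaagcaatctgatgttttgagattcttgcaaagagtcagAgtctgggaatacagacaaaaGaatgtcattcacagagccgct
RPL15B: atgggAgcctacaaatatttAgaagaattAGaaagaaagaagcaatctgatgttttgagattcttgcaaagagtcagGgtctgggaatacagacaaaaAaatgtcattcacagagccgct
The most alike pair, RPL1, had only 2 differing positions in the same stretch, again in capitals.
RPL1A: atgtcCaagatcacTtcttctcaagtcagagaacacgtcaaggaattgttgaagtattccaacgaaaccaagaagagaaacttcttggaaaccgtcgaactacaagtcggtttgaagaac
RPL1B: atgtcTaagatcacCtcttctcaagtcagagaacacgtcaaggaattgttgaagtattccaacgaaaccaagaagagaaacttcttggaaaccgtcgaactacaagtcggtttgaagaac
RPL41A and RPL41B encode the smallest protein of the subunit and are shown whole. Their 78 coding bases differ at 1 position, in capitals.
RPL41A: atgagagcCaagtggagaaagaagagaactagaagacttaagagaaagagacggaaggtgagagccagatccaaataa
RPL41B: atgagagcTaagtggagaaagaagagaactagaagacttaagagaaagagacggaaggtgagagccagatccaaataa

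The 81 genes were among the most abundant transcripts. Over all libraries their mean normalised count in the authors' deposited table ran from 967 for RPL15B to 86029 for RPL4A, with a median of 13217 against 589 for all genes. Per kilobase of coding sequence, the untreated wild-type level ranged from 1002 for RPL15B to 91508 for RPP2B, with a median of 34545 against 469 for the 5764 genes with a coding sequence in R64. The lowest per kilobase after RPL15B were RPL22B at 3832 and RPL7B at 4983, and the highest after RPP2B were RPP2A at 87115 and RPP1A at 78764. The low end thus held B copies of pairs, and the top 3 were acidic stalk proteins. The genes lay on 14 chromosomes, and 53 of them (65.4%) had an intron, against 4.75% of the matched genes.

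Azide lowered a subset of these genes in each strain, and most of the others had small changes of the same sign. In Δscd6 cells 19 of 81 fell and 1 rose in the authors' deposited table, beside 20.4% of all genes that fell and 22.1% that rose. In Δsbp1 cells 17 fell and 1 rose in the authors' deposited table, beside 27.4% and 27.5% of all genes. In wild-type cells 18 fell and 1 rose in the authors' deposited table, beside 20.6% and 21.3% of all genes. The share of members that fell, 23.5% in Δscd6, 21.0% in Δsbp1 and 22.2% in wild type, was therefore close to the share of all genes in Δscd6 and wild type and under it in Δsbp1. Members had larger implied errors than all genes, with medians of 0.29 against 0.24 in each strain, so calls on them had less power. The share that rose was far under that of all genes, and the genes' values leaned to one side. In the authors' deposited table the log2 fold change was below 0 for 80 of 81 in Δscd6 (median -0.51), for 58 in Δsbp1 (median -0.24) and for 77 in wild type (median -0.42). Over all genes 51.0%, 50.7% and 50.8% were below 0 and the medians were -0.017, -0.018 and -0.015 in the same order of strains. Counting each protein once, by the sum of its copies, gave medians of -0.53, -0.26 and -0.43. These directions depend on the scaling: with the 6 groups set to equal totals, every azide fold change moves up, by 0.39 in Δscd6, 0.28 in Δsbp1 and 0.15 in wild type, for all genes alike. On that scale 0 members fell and 1 rose in Δscd6, 6 fell and 7 rose in Δsbp1, and 11 fell and 1 rose in wild type. All genes had 8.46% falls and 40.2% rises in Δscd6, 19.4% and 38.7% in Δsbp1, and 15.7% and 27.6% in wild type on it, so the members' rises stayed under the share of all genes. The median of the members in Δsbp1 turned to 0.04.

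**Figure D1:**
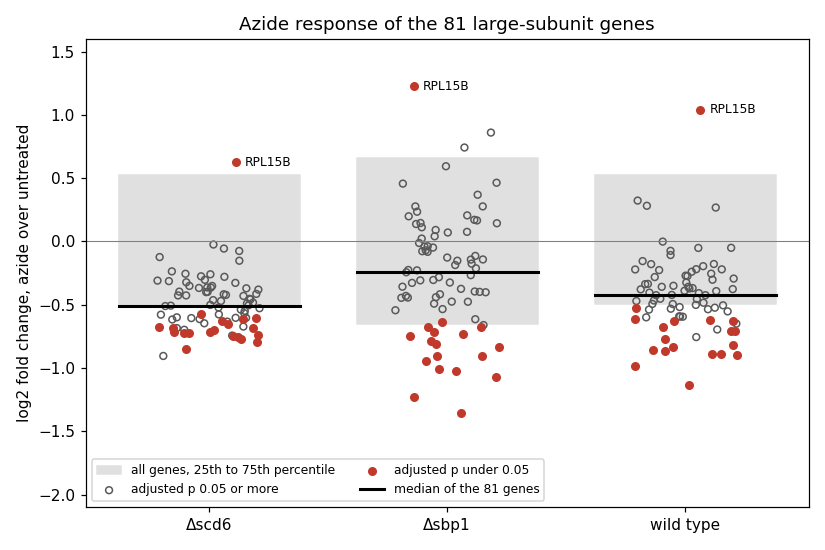
Azide response of the 81 large-subunit genes in Δscd6, Δsbp1 and wild type. Each point is 1 gene, the y axis is the authors' log2 fold change of azide over untreated, filled points have an adjusted p under 0.05, the bar is the median of the 81 genes and the grey box spans the 25th to 75th percentile of all genes. The medians stand at -0.51, -0.24 and -0.42, and RPL15B is the 1 filled point above 0 in each strain.

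RPL15B was the single gene of the 81 that rose, and it did so in all 3 strains. It is the minor copy of the pair for Rpl15, an essential protein of the subunit's core. Its rebuilt level was 1098 in azide and 712 untreated in Δscd6, 1476 and 631 in Δsbp1, and 1268 and 616 in wild type. The authors' deposited table gave log2 fold changes of 0.62 ± 0.26 in Δscd6 (adjusted p = 0.039), 1.23 ± 0.26 in Δsbp1 (adjusted p = 1.2e-05) and 1.04 ± 0.26 in wild type (adjusted p = 0.00032), each with its implied standard error. With equal totals the rise kept its call, at 1.02 in Δscd6, 1.51 in Δsbp1 and 1.19 in wild type. Its partner RPL15A, far more abundant, stood at 47596 in azide and 51832 untreated in Δscd6, 45562 and 39500 in Δsbp1, and 42364 and 44594 in wild type. RPL15A was not called in any strain in the authors' deposited table, with log2 fold changes of -0.12, 0.21 and -0.07. RPL15B thus made up 2.26% of the pair in azide and 1.36% untreated in Δscd6, 3.14% and 1.57% in Δsbp1, and 2.91% and 1.36% in wild type. How reads of RPL15A were kept from RPL15B is not stated, and its part in these values was not tested.

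**Figure D2:**
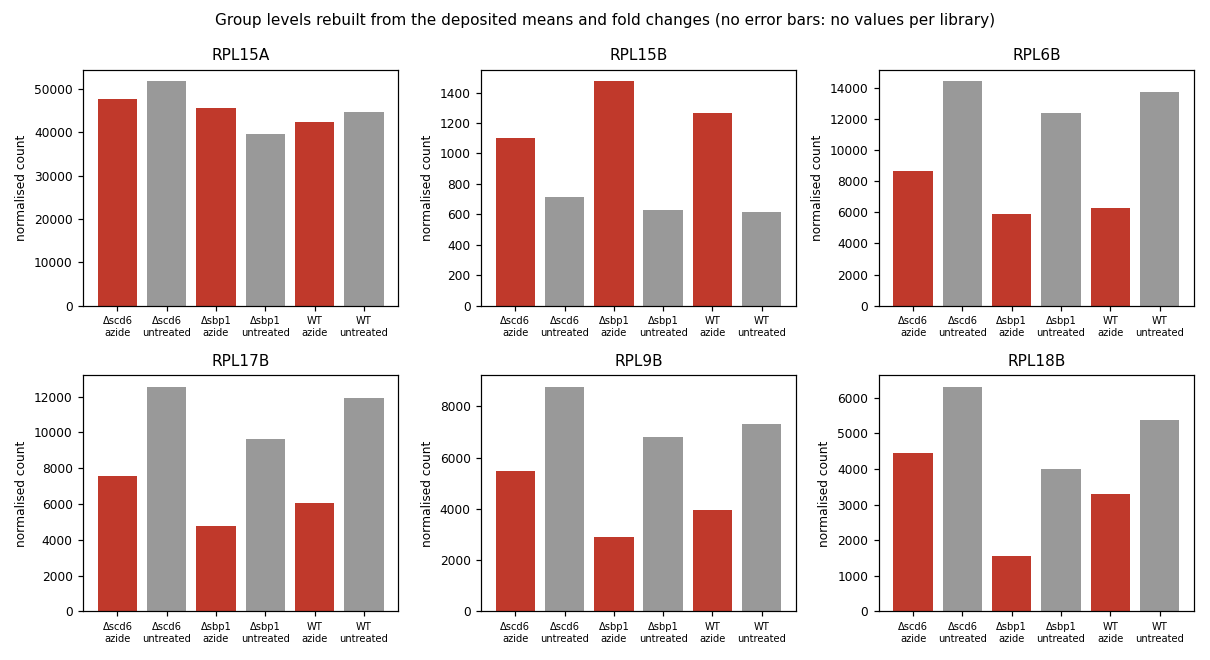
Rebuilt group levels of 6 named genes in Δscd6, Δsbp1 and wild type, azide beside untreated. The y axis is the normalised count on a linear scale from 0, and bars have no error because no values per library were analysed. RPL15B is higher in azide in each strain, RPL15A differs little, and RPL6B, RPL17B, RPL9B and RPL18B are lower in azide in each strain.

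Neither upstream region of the RPL15 copies held the Rap1-type core ACCCNTACA, searched on both strands over 500 bases before the start codon. Part of each region is shown in R64, on the minus strand, as 150 bases that begin 250 bases before the start codon. RPL15A is at chrXII:202691-202840 and RPL15B at chrXIII:510449-510598.
RPL15A upstream: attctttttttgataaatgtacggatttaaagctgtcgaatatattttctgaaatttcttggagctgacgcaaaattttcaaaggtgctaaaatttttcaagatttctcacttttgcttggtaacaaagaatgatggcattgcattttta
RPL15B upstream: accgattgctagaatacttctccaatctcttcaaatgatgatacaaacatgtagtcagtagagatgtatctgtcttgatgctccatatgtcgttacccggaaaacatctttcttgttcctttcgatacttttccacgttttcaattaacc
No mismatch to the motif was allowed, so its absence does not show that a Rap1 site is absent. The motif was found upstream of 22 of the 81 genes (27.2%) and of 12 of 57 small-subunit genes (21.1%). Of all 5764 genes, 105 (1.82%) had it. The 22 genes with it had median azide log2 fold changes of -0.57 in Δscd6, -0.20 in Δsbp1 and -0.36 in wild type, against -0.50, -0.30 and -0.45 for the 59 without it. Windows are shown for genes that fell in every strain, 29 bases each with the motif in capitals. RPL13A had 2 matches, and the one shown, nearest to the start codon, began 218 bases before it. In RPL6B the motif lay on the other strand at 439 bases.
RPL13A: ttaatatgtgACCCATACAtttcctgtta
RPL6B: tgcaccaaaaTGTATGGGTcataattttt

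Of the 81 genes, 9 (11.1%) fell in all 3 strains, beside 11.4% of all genes: RPL6A, RPL6B, RPL9B, RPL12A, RPL13A, RPL14B, RPL17B, RPL21B and RPL31B. They were 47.4% of the falls in Δscd6, 52.9% of those in Δsbp1 and 50% of those in wild type. Over all genes, those that fell in all 3 strains were 56.1%, 41.8% and 55.5% of the falls in the same order. These 3 responses share no library, though a gene's implied error was nearly the same in each. A further 19 fell in 1 or 2 strains, which makes 28 with a fall in at least 1. The other 52 (64.2%), apart from the rise of RPL15B, were called in none, beside 32.7% of all genes. The members' median implied error was 0.29 in each strain against 0.24 for all genes, so those shares are not at equal power. Across the 81 genes, Pearson's r between responses was 0.62 for Δscd6 with Δsbp1, 0.67 for Δscd6 with wild type and 0.60 for Δsbp1 with wild type, against 0.81, 0.71 and 0.85 over all genes. By rank (Spearman's rho) the members had 0.55, 0.53 and 0.59, against 0.85, 0.70 and 0.83 over all genes. The order of the members' values thus depends on the measure. These are descriptions across genes, which are not independent and share the authors' scaling.

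The largest falls in wild type were of RPL6B, RPL17B, RPL21B, RPL14B, RPL9B and RPL12A. RPL6B encodes a protein on the solvent side of the subunit, and its rebuilt level was 8665 in azide and 14462 untreated in Δscd6, 5886 and 12365 in Δsbp1, and 6269 and 13739 in wild type. The authors' deposited table gave it log2 fold changes of -0.74 ± 0.24 (adjusted p = 0.0074), -1.07 ± 0.24 (4.0e-05) and -1.13 ± 0.24 (2.2e-05) in the same order. RPL17B, whose protein reaches into the exit tunnel, stood at 7586 in azide and 12548 untreated in Δscd6, 4798 and 9636 in Δsbp1, and 6044 and 11921 in wild type. Both genes were lower in azide in every strain. RPL17B fell in the authors' deposited table by 0.73 ± 0.23 (adjusted p = 0.0047), 1.01 ± 0.23 (3.7e-05) and 0.98 ± 0.23 (9.2e-05) on the log2 scale. RPL9B, for a protein at the base of the stalk, fell in the authors' deposited table by 0.68 ± 0.22 (adjusted p = 0.0067), 1.23 ± 0.22 (1.5e-07) and 0.88 ± 0.22 (0.00028). RPL21B, RPL14B and RPL12A, the last a protein of the stalk base, had wild-type log2 fold changes between -0.90 and -0.87 in the authors' deposited table.

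The order was different in the deletion strains. In Δscd6 the lowest value, -0.90, was that of RPL2B, which was not called. The 6 largest called falls in the authors' deposited table were of RPL23A (-0.85, adjusted p = 0.027), RPL21B (-0.79), RPL6A (-0.77), RPL26B (-0.76), RPL22A (-0.75) and RPL6B. RPL26B encodes a protein at the tunnel exit, and of these 6 RPL22A and RPL26B were called in Δscd6 alone, a difference between strains that did not pass its own test, given below. In Δsbp1 the 6 largest falls were of RPL18B, RPL9B, RPL6B, RPL2B, RPL17B and RPL7B. RPL18B stood at 1568 in azide and 4002 untreated in Δsbp1, 4443 and 6314 in Δscd6, and 3298 and 5384 in wild type. The authors' deposited table gave RPL18B -1.35 ± 0.24 in Δsbp1 (adjusted p = 1.2e-07) and -0.71 ± 0.24 in wild type (adjusted p = 0.0091), with no call in Δscd6. RPL2B, for a protein next to the peptidyl transferase centre, fell in the authors' deposited table by 1.02 ± 0.41 in Δsbp1 (adjusted p = 0.027), and RPL7B, which has 2 introns, by 0.94 ± 0.21 (2.4e-05).

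The falls were also counted by the role of the protein. Beside these counts, 20.4% of all genes fell in Δscd6, 27.4% in Δsbp1 and 20.6% in wild type. The stalk recruits the elongation factors: RPP0 anchors the acidic proteins of RPP1A, RPP1B, RPP2A and RPP2B, and Rpl12 binds beside it. None of the 5 RPP genes was called in any strain in the authors' deposited table. Their log2 fold changes there lay between -0.67 (RPP1B) and -0.42 (RPP2B) in Δscd6, between -0.44 (RPP0) and 0.14 (RPP2B) in Δsbp1, and between -0.34 (RPP1B) and -0.05 (RPP0) in wild type. Of the stalk genes only RPL12A fell in every strain, and RPL12B fell in wild type (-0.63 ± 0.25, adjusted p = 0.033, in the authors' deposited table). In Δscd6 RPL12A was called at -0.60 ± 0.25, while RPP1B at -0.67 was not. The 7 stalk genes had a median implied error of 0.35 in Δscd6. The lack of a call in that strain therefore does not show a smaller fall. The 3 genes of the 5S RNA particle, RPL5, RPL11A and RPL11B, were not called in any strain and had median log2 fold changes of -0.41 in Δscd6, -0.32 in Δsbp1 and -0.27 in wild type. Of the 15 genes of the exit tunnel and its rim, 6 (40%) fell in Δscd6, 2 (13.3%) in Δsbp1 and 3 (20%) in wild type. RPL4A and RPL4B, for a protein that narrows the tunnel, were not called in the authors' deposited table and had the highest uncalled values in wild type, 0.28 ± 0.53 and 0.32 ± 0.55. Of the 8 genes of late-joining or ubiquitin-fused proteins (RPL10, RPL24A, RPL24B, RPL29, RPL40A, RPL40B, RPL42A and RPL42B), 0 were called in any strain. The other 48 core genes held 12 falls (25%) in Δscd6, 14 (29.2%) in Δsbp1 and 13 (27.1%) in wild type, together with the rise of RPL15B.

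The 11 genes with no second copy were not called in any azide response in the authors' deposited table. They are RPL3, RPL5, RPL10, RPL25, RPL28, RPL29, RPL30, RPL32, RPL38, RPL39 and RPP0. Their median log2 fold change there was -0.42 in Δscd6, -0.14 in Δsbp1 and -0.30 in wild type, and their implied errors ran from 0.27 to 0.42 in wild type. RPL3, for a protein that reaches the peptidyl transferase centre, stood at 78134 in azide and 81227 untreated in Δscd6, 75107 and 61986 in Δsbp1, and 83858 and 69642 in wild type. RPL10, whose protein completes the peptidyl transferase centre late in assembly, had log2 fold changes of -0.26, 0.15 and -0.05 in the authors' deposited table. RPL5, which carries the 5S RNA, had -0.42, -0.32 and -0.18, and RPL25, at the site where the signal recognition particle docks, had -0.31, 0.11 and -0.30. RPL28 had -0.58, -0.28 and -0.60 in the authors' deposited table, RPL30, whose protein represses the splicing of its own transcript, had -0.60, -0.14 and -0.22, and RPL32 and RPL38 lay between -0.55 and -0.15. The small genes RPL29 and RPL39 leaned the other way in Δsbp1, at 0.74 ± 0.36 (adjusted p = 0.067) and 0.86 ± 0.42 (adjusted p = 0.069) in the authors' deposited table. In Δscd6 those genes had -0.35 and -0.37, and in wild type -0.42 and -0.48.

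Within pairs, the copies differed by under 0.25 log2 units in 26 of 35 pairs in Δscd6, 15 in Δsbp1 and 26 in wild type. The median size of the difference between copies, A minus B in log2 fold change, was 0.145 in Δscd6, 0.31 in Δsbp1 and 0.15 in wild type, against a median implied error of 0.39. In no pair did the copies have opposite calls. Both copies fell in 4 pairs in Δscd6, 2 in Δsbp1 and 3 in wild type, the A copy alone in 5, 5 and 5, and the B copy alone in 6, 8 and 7. The difference exceeded 2 implied errors in 0 of 35 pairs in Δscd6, 5 of 34 in Δsbp1 and 2 of 34 in wild type. It was largest in wild type for RPL15 (-1.11 ± 0.44), RPL17 (0.71 ± 0.35), RPL9 (0.69 ± 0.39) and RPL16 (-0.34 ± 0.39), where a positive value means that the B copy was the lower. In Δscd6 the largest were of RPL15 (-0.75 ± 0.45), RPL22 (-0.72 ± 0.37), RPL36 (0.61 ± 0.42) and RPL2 (0.60 ± 0.55). In Δsbp1 they were of RPL9 (1.06 ± 0.39), RPL15 (-1.02 ± 0.45), RPL17 (0.93 ± 0.35) and RPL18 (0.92 ± 0.40). These pairs were picked for their size, and no test is given. The share of the minor copy RPL9B in its pair was 20.5% in azide and 22.3% untreated in Δscd6, 16.6% and 29.2% in Δsbp1, and 18.0% and 26.2% in wild type. That of RPL17B was 26.6% and 35.1%, 22.9% and 36.1%, and 27.2% and 37.9%. Both B copies held a smaller part of their pair in azide in every strain, though RPL9B differed little in Δscd6. The 11 pairs of at least 95% coding identity had a median difference in size of 0.145 in Δscd6, 0.19 in Δsbp1 and 0.11 in wild type, and the other 24 had 0.145, 0.36 and 0.16. Whether the reads of like copies were mixed was not tested.

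**Figure D3:**
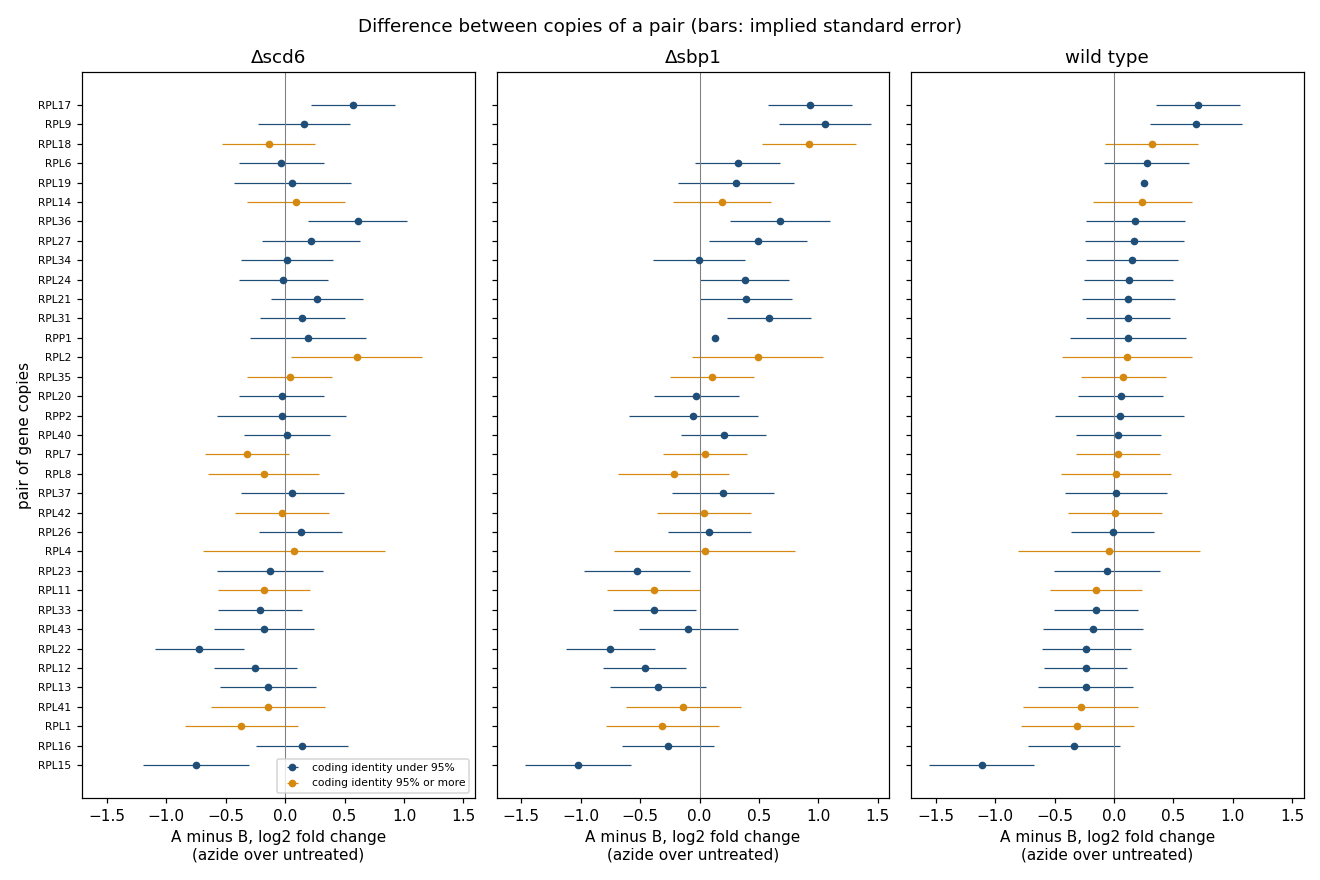
Difference of the azide response between the copies of each of the 35 pairs, in Δscd6, Δsbp1 and wild type. The x axis is the A copy's log2 fold change minus the B copy's, bars are 1 implied standard error (none where a change was under 0.02 in size), and colour marks a coding identity of at least 95%. RPL15 is far left in each strain, and RPL17 is to the right in each.

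**Figure D4:**
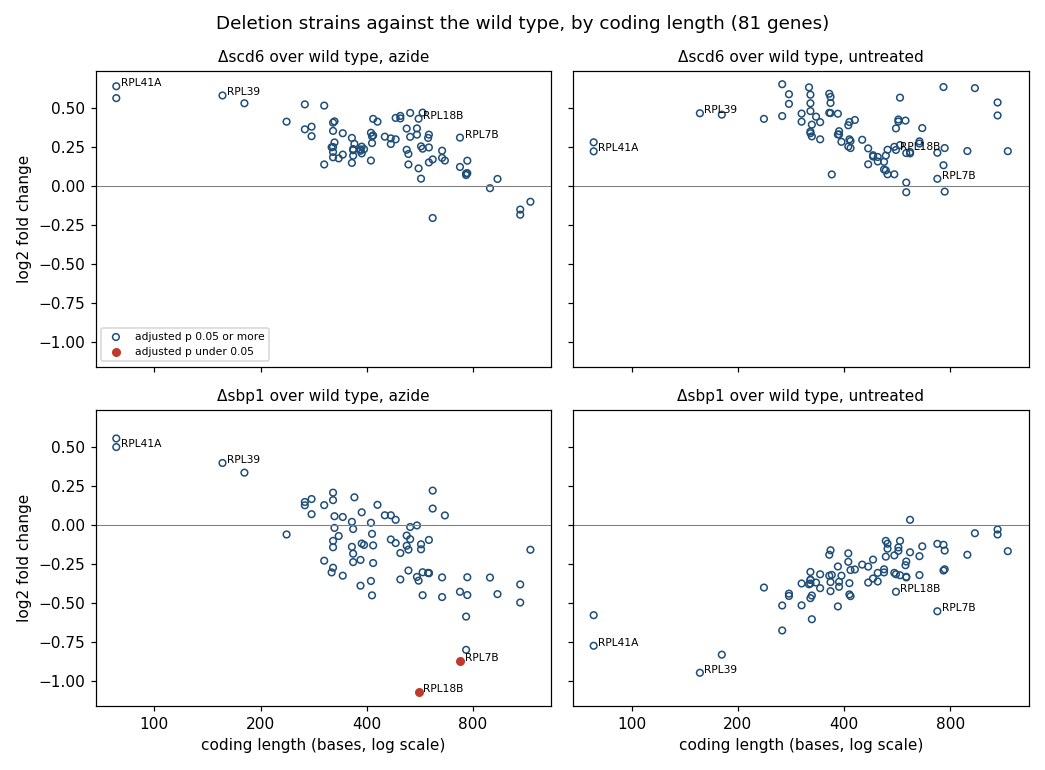
Log2 fold change of Δscd6 over wild type and Δsbp1 over wild type, in azide and untreated, for the 81 genes against coding length. The x axis is a log scale in bases, each point is 1 gene and filled points have an adjusted p under 0.05. In untreated Δsbp1 the shortest genes are lowest, and in azide they are highest.

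Neither deletion changed many of these genes against wild type. In Δscd6 cells 0 of 81 were called in azide, beside 2.03% of all genes that rose and 2.28% that fell, and 0 untreated, beside 1.45% and 1.07%, by the authors' test. At an unadjusted p under 0.05 the authors' deposited table had 2 higher in azide and 5 higher untreated, and 0 lower in either. Over all genes 8.09% were higher and 6.85% lower in azide, and 8.72% and 10.3% untreated, so these counts are no excess. The values leaned upward all the same, with 5 of 81 below 0 in azide (median 0.25) and 2 untreated (median 0.32) in the authors' deposited table, beside 45.7% and 51.3% of all genes. With equal totals the untreated values of Δscd6 move down by 0.28, which leaves a median of 0.04. In azide the median for Δscd6 on that scale was 0.22, with 5 of 81 below 0. The 57 small-subunit genes leaned upward too, with medians of 0.29 in azide and 0.29 untreated in the authors' deposited table. With equal totals these were 0.26 and 0.01. In Δsbp1 2 of 81 fell in azide in the authors' deposited table, beside 9.29% of all genes that rose and 11.9% that fell, and 0 were called untreated, beside 1.54% and 0.441%. Untreated, the authors' deposited table had 8 lower at an unadjusted p under 0.05, and 0 higher, beside 5.13% and 5.75% of all genes. There 80 of 81 were below 0 (median -0.32), beside 50.8% of all genes. With equal totals the median stayed at -0.32, and 80 were below 0. Of the small-subunit genes, 55 of 57 were below 0 in untreated Δsbp1 (median -0.29) in the authors' deposited table. The 2 genes that fell in azide were RPL18B, by 1.07 ± 0.24 (adjusted p = 0.00014), and RPL7B, by 0.87 ± 0.21 (adjusted p = 0.00044), on the log2 scale of the authors' deposited table. RPL7B, for another protein of the subunit's core, stood at 1297 in Δsbp1 and 2371 in wild type in azide, and at 2496 in Δsbp1 and 3662 in wild type untreated. RPL18B and RPL7B kept these calls with equal totals. Untreated, the authors' deposited table gave them -0.43 and -0.55 with no call.

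The size of the coding sequence went along with these differences among the 81 genes. Pearson's r between log2 coding length and log2 fold change over wild type was -0.68 for Δscd6 in azide and -0.27 untreated, and -0.67 for Δsbp1 in azide and 0.75 untreated. Over the 5764 genes with a coding length it was -0.05, -0.24, -0.17 and -0.01. By rank (Spearman's rho) the members had -0.53, -0.44, -0.60 and 0.72, and the 5764 genes -0.07, -0.37, -0.20 and -0.07. These values are descriptions across genes of the same libraries, and both azide comparisons share their wild-type libraries, as do both untreated ones. Of the 9 genes under 300 bases, 4 (RPL29, RPL39, RPL41A and RPL41B) are the shortest of all 81. The 9 short genes had a median log2 fold change in untreated Δsbp1 of -0.58, against -0.17 for the 16 members over 600 bases. Their median azide response in Δsbp1 was 0.37, against -0.43 for those 16. In the azide response of Δscd6 the medians were -0.51 and -0.34, and in that of wild type -0.48 and -0.21. The other 252 genes under 300 bases also had a raised median in the azide response of Δsbp1, 0.39, against -0.02 in wild type. In Δscd6 over wild type, these 252 genes had medians of 0.29 in azide and 0.25 untreated. In Δsbp1 over wild type they had 0.24 and -0.16. The 4614 other genes over 600 bases had 0.02, -0.07, -0.02 and 0.01 in the same order. In each comparison the short genes outside the 81 differed from the long ones in the members' direction.

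The difference between strains in the azide response was tested gene by gene. No member passed at an adjusted p under 0.05 for Δscd6 minus wild type, Δsbp1 minus wild type or Δsbp1 minus Δscd6, with normal tests on implied errors, beside 4.12%, 2.23% and 5.57% of all genes. At an unadjusted p under 0.05, 0 members were above and 0 below for the first difference, 5 and 0 for the second, and 4 and 2 for the third. Over all genes the shares above and below were 11.1% and 9.18%, 5.48% and 10.1%, and 6.14% and 11.1%, and the members' shares were near or under these. The lowest adjusted p for Δsbp1 minus wild type was that of RPL41A, with a difference of 1.27 ± 0.47 (adjusted p = 0.12). RPL41A stood at 4493 in azide and 3273 untreated in Δsbp1, and at 3177 and 5597 in wild type, where it fell in the authors' deposited table by 0.82 ± 0.33 (adjusted p = 0.036). The other tiny genes had differences of 1.17 ± 0.51 for RPL29, 1.34 ± 0.59 for RPL39 and 1.13 ± 0.50 for RPL41B, with adjusted p = 0.23 each. RPL18B had -0.84 ± 0.34 for Δsbp1 minus Δscd6 (adjusted p = 0.13). RPL15B had -0.41 ± 0.37 for Δscd6 minus wild type (adjusted p = 0.56), so its lower rise in Δscd6 was within the error. A call in 1 strain and not in another is therefore not a shown difference for any of these genes.

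As a share of all normalised counts, the 81 genes took 11.1% in azide and 11.7% untreated in Δscd6, 9.65% and 9.37% in Δsbp1, and 10.2% and 11.1% in wild type. The share was lower in azide in Δscd6 and wild type and slightly higher in Δsbp1. The 57 small-subunit genes took 7.25% and 8.17% in Δscd6, 5.83% and 6.68% in Δsbp1, and 6.33% and 7.87% in wild type. The exit tunnel and rim genes, of which RPL4A and RPL4B were the most abundant, took 2.30% in azide and 2.34% untreated in Δscd6, 2.08% and 1.87% in Δsbp1, and 2.27% and 2.11% in wild type. These shares have no error because they rest on group levels.

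**Figure D5:**
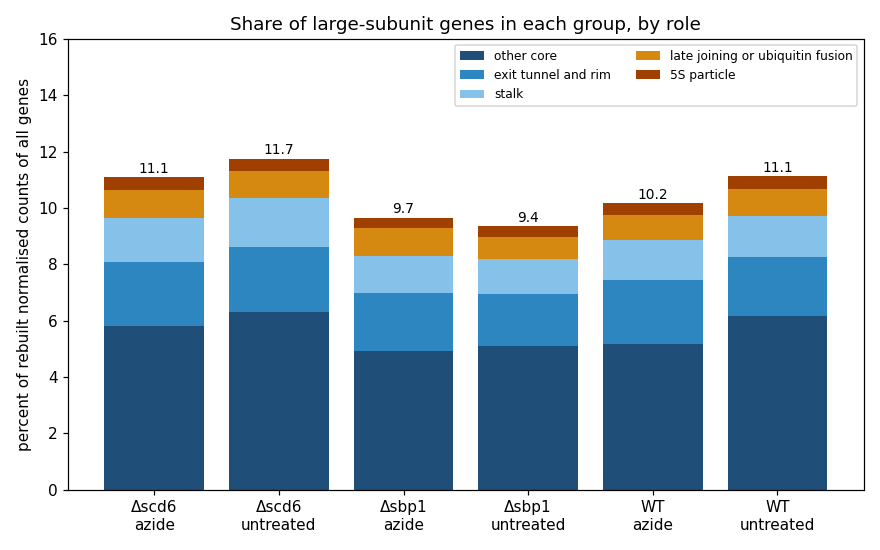
Share of all rebuilt normalised counts taken by the 81 genes in each group, stacked by role. The y axis is percent of the counts of 6352 genes, from 0. The totals are 11.1 and 11.7 in Δscd6, 9.65 and 9.37 in Δsbp1 and 10.2 and 11.1 in wild type, azide before untreated.

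Genes with an intron and genes without one both leaned down in azide. Of the 53 with an intron, 17 fell in Δscd6, 14 in Δsbp1 and 14 in wild type, with median log2 fold changes of -0.60, -0.28 and -0.48. Of the 28 without, 2, 3 and 4 fell and RPL15B rose, with medians of -0.40, -0.16 and -0.33. Over all genes 20.4% fell in Δscd6, 27.4% in Δsbp1 and 20.6% in wild type.

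The other genes of the pathway were described from lists, here and in the next paragraph. Over all genes, 20.4% fell and 22.1% rose in Δscd6, 27.4% and 27.5% in Δsbp1, and 20.6% and 21.3% in wild type. With equal totals the shares were 8.46% and 40.2%, 19.4% and 38.7%, and 15.7% and 27.6%. Of 57 small-subunit ribosomal protein genes, 18 fell and 0 rose in Δscd6, 17 fell and 2 rose in Δsbp1, and 20 fell and 0 rose in wild type in the authors' deposited table, with medians of -0.56, -0.41 and -0.55. With equal totals the falls were 1, 9 and 11 and the rises 0, 7 and 0. Of 34 genes for mitochondrial large-subunit proteins, which belong to another ribosome, 6 fell and 7 rose in Δscd6, 4 fell and 4 rose in Δsbp1, and 4 fell and 2 rose in wild type in the authors' deposited table. With equal totals 3 fell and 16 rose in Δscd6, 3 and 15 in Δsbp1, and 4 and 5 in wild type. Of 7 dedicated chaperones of large-subunit proteins, 2 fell in Δscd6, 5 in Δsbp1 and 3 in wild type, and 0 rose, in the authors' deposited table; with equal totals 0, 5 and 2 fell. SYO1, which carries Rpl5 and Rpl11 to the nucleus, had -0.49 in Δscd6 (adjusted p = 0.063), -1.72 in Δsbp1 (2.0e-12) and -0.99 in wild type (5.8e-05) in the authors' deposited table. SQT1, the chaperone of Rpl10, had -0.84 (adjusted p = 0.0004), -1.48 (7.6e-11) and -0.40 (0.11) there. PUF6, an RNA-binding protein that also chaperones Rpl43, had -0.38 (0.24), -1.99 (2.2e-12) and -0.81 (0.0062). ACL4 and BCP1 were not called in any strain.

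Genes for export and late maturation of the 60S particle included falls larger than that of any of the 81 genes in each strain. Of 16, 9 fell and 0 rose in Δscd6, 11 fell and 2 rose in Δsbp1, and 10 fell and 1 rose in wild type in the authors' deposited table. With equal totals 3 fell and 3 rose in Δscd6, 11 and 3 in Δsbp1, and 8 and 1 in wild type. ARX1, an export factor at the tunnel exit, had -1.37 in Δscd6 (adjusted p = 2.5e-06), -3.44 in Δsbp1 (3.4e-30) and -2.38 in wild type (2.2e-16) in the authors' deposited table. ALB1, its partner, had -1.93, -2.88 and -2.19 there, and REI1, which releases both in the cytoplasm, had -1.48, -2.56 and -1.39. The rises there were of MTR2 in Δsbp1 (0.86, adjusted p = 0.00032) and wild type (0.70, 0.005), and of SDO1 in Δsbp1 (0.72, 0.0046). MEX67, RIA1 and YVH1 were not called in any strain. Of 10 regulators of ribosome genes, 5 fell and 1 rose in each of Δscd6 and Δsbp1 in the authors' deposited table. In wild type 4 fell and 2 rose there. The list holds activators such as IFH1 and repressors such as CRF1, so these counts have no single direction. With equal totals 1 fell and 2 rose in Δscd6, 4 and 1 in Δsbp1, and 3 and 2 in wild type. IFH1 encodes a coactivator of ribosomal protein genes. It fell in the authors' deposited table by 0.741 in Δscd6 (adjusted p = 0.0059), 1.413 in Δsbp1 (2.7e-08) and 1.496 in wild type (5.2e-09). CRF1, a corepressor that competes with Ifh1 for Fhl1, rose in the authors' deposited table by 0.62 (adjusted p = 0.011), 1.93 (7.3e-18) and 1.65 (3.7e-13). RAP1 fell there by 0.82 (adjusted p = 0.00068), 1.12 (1.0e-06) and 0.73 (0.0022), while SFP1, HMO1 and STB3 were not called in any strain. TOD6 fell in every strain, by 1.05 (adjusted p = 0.00052), 1.77 (3.3e-09) and 0.75 (0.015). SCH9 also fell in each strain, and FHL1 fell in Δscd6 and Δsbp1. DOT6 was called in wild type alone, at 1.41 (adjusted p = 0.0012) against -0.06 in Δscd6 and -0.38 in Δsbp1. By the normal test on implied errors, its difference from wild type passed in Δsbp1 (-1.78, adjusted p = 0.046). In Δscd6 it did not (-1.465, adjusted p = 0.097). For CRF1 the difference from wild type passed in Δscd6 (-1.02, adjusted p = 0.025) and not in Δsbp1 (0.28, adjusted p = 0.69) by that test.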

How the data were processed

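Total RNA was extracted with hot phenol and sequenced as Illumina libraries, 2 for each of 6 groups of strain and treatment, per the labels' protocols. The submitters' processing notes list STAR 2, Picard, featureCounts and edgeR but assign them no role; the build and the strandedness of counting are likewise not given in those sources. The deposited mean normalised count is a signal on a linear scale, identical in all 7 tables. Deposited fold changes are linear ratios, with a log2 column beside them, and the p-value and adjusted p-value columns are also the authors' own. Their adjusted p-value equals a Benjamini-Hochberg adjustment over 6352 genes to within 4.6e-08. Depth per library is unknown here. Group levels were rebuilt from the deposited mean and fold changes, weighting groups equally. A standard error was implied by dividing the size of each log2 fold change of at least 0.02 by the normal quantile that its p-value gives. Differences of responses from wild type used the larger variance of 2 routes, and Δsbp1 minus Δscd6 used the azide responses alone. Each had a normal test and Benjamini-Hochberg adjustment, over 6331, 6329 and 6142 genes. The steps were tested on simulated data for Δscd6 minus wild type only. The count model planned first could not be used, since only comparison tables were held.

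Members and lists were chosen with earlier results of these data known. Named genes are, per azide response, the 6 largest rises and 6 largest falls at an adjusted p under 0.05, and 4 of each in other comparisons; all genes with no second copy; the 5 RPP genes; the 4 pairs with the largest difference per azide response; and SCD6, SBP1 and RPL8A. Genes named besides these were chosen after their values were seen. Sequences come from RefSeq R64, matched by systematic name. Python 3.11.15, pandas 2.3.3, numpy 2.4.6, scipy 1.17.1, matplotlib 3.10.9 and Biopython 1.88 were used.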

Additional observations from a re-analysis of the deposited data

How the results depend on the processing

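No paired analysis was possible because no values per library were analysed, and leaving out each library in turn was not run for the same reason. Of 59 calls of members, 21 were kept under all 5 alternatives and 0 reversed: 28 were kept at an adjusted p under 0.01, 57 with a log2 change of at least 0.58, 59 with a mean normalised count of at least 100, 22 with equal totals and 57 with the median gene at 0. Called members numbered 4 in Δscd6, 10 in Δsbp1 and 12 in wild type at an adjusted p under 0.01, against 20, 18 and 19. With equal totals they numbered 1 in Δscd6 and 12 in wild type, and the median responses became -0.12 in Δscd6, 0.0375 in Δsbp1, which is a change of sign, and -0.27 in wild type. In Δsbp1 13 were called on that scale, 7 of them also called as deposited, and the added ones were rises of RPL22B, RPL29, RPL36A, RPL39, RPL41A and RPL41B. The medians kept their sign without the pairs of at least 95% identity (-0.54, -0.23 and -0.47) and with one value per protein. Counts of members against wild type and in differences of responses did not move under any alternative run. The equal-totals scale follows from the rebuilt group totals, and which scale is nearer to RNA per cell was not tested.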
